A study of Homo sapiens with 6 samples.

Results

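The clustered protocadherin genes were examined by ATAC-seq in MDA-MB-231, a human cell line widely used as a model of triple-negative breast cancer. ATAC-seq marks open chromatin, because a transposase cuts accessible DNA and leaves sequencing adapters there. The members were the protein-coding genes of chromosome 5 in GENCODE release 44 on GRCh37 (hg19) whose names begin with PCDHA, PCDHB or PCDHG and continue as a member name. This rule used no measured value and found 53 of 20176 protein-coding genes, with 15 in the alpha, 16 in the beta and 22 in the gamma subcluster. Of the 6 libraries, 3 were from Parental cells and 3 from SAP30-KO1 cells, a line made from MDA-MB-231 by CRISPR/Cas9 knockout of SAP30, which encodes a subunit of the SIN3 histone deacetylase complex. Both groups are cells of 1 cell line kept in a DMEM-based medium with fetal bovine serum, and the labels name no treatment. The knockout lines had passed through puromycin selection, and whether the Parental cells had is not given in the sources used here. The study describes a knockout line as a mixture of several selected knockout cells, so SAP30-KO1 stands for 1 such mixture. The comparison asks how the loss of SAP30 changes accessibility at these genes.

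Clustered protocadherins are cell adhesion proteins of the cadherin superfamily, best known from neurons, where each cell expresses its own combination and uses it to tell itself from other cells. In the alpha and gamma subclusters each member has its own promoter and its own large first exon, which is spliced to later exons that all members of the subcluster share. The first exon encodes the extracellular, membrane-spanning and adjoining parts, and the shared exons encode the common cytoplasmic end, while most beta genes consist of the large exon alone. Most promoters are chosen at random in each neuron with the help of CTCF, cohesin, distant enhancers and DNA methylation, whereas the C-type genes at the ends of the alpha and gamma subclusters are expressed more uniformly. The annotation follows this layout. The 15 alpha genes shared 3 later exons, which begin at chr5 positions 140358534, 140362060 and 140389212, and the 22 gamma genes shared 3, which begin at 140874374, 140884960 and 140890514. Of the 16 beta genes, 14 had a single exon and 0 exons were shared. All members lie on the plus strand, alpha at chr5:140165721-140391932, beta at chr5:140430959-140628933 and gamma at chr5:140710081-140892544.

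Many member promoters carry a common short element just before the start. Its letters, CGCT followed by 5 bases of any kind, C, any base and A, were written down after the member promoters had been read, and were then searched from 150 bases before to 50 after the canonical start. On the sense strand the element was found in 31 of 53 members (58.5%) and in 3.99% of 20163 protein-coding promoters with sequence, and on either strand in 62.3% and 8.20%. Because the letters came from these promoters, the difference is a description of the family and was not tested. The element was present in 8 of 15 alpha, 7 of 16 beta and 16 of 22 gamma genes. Its median position was 51 bases before the start in the alpha genes, as an offset of -51, with -62 in the beta and -62.5 in the gamma genes. The following examples from GRCh37, plus strand, show that the element is present in genes with and without an ATAC summit. The bases around it were alike in PCDHA1 and PCDHA2 and less so in PCDHAC2. Capitals mark the match.
PCDHA1 (chr5:140165675-140165704): gccacatgatgtCGCTGTACACCAcaaagt
PCDHA2 (chr5:140174370-140174399): gccacatgatgtCGCTGTCCACCAtagagt
PCDHAC2 (chr5:140345954-140345983): gcagtccgggttCGCTGTCCGCCActtcgg
PCDHB5 (chr5:140514765-140514794): gacgcctggtggCGCTGCAGGCTAagagtg
PCDHB10 (chr5:140571876-140571905): gccacacggtggCGCTGCAGGCTAaagaga
PCDHGA1 (chr5:140709974-140710003): gactgtgggcgcCGCTGTTCACTAatctgg
PCDHGB1 (chr5:140729596-140729625): acctctgggcgcCGCTGTCGACCAaaagga
PCDHGC3 (chr5:140855451-140855480): gactctgtgtgcCGCTGTCGGCCAatgaag

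The deposited lists give 1 summit, the highest point of a peak, for each peak of a library, scored by the authors' peak caller as −log10 of its q value. The lists held 29762 to 40650 summits. Because scores from separate lists are not on 1 scale, each was turned into a percentile rank within its list, from 0 to 100, and a gene took the highest rank within 1 kb of any of its annotated starts, or 0 where no summit lay there. Read counts are not part of these lists, so depth is unknown, and a rank of 0 says that no peak was called and not that the DNA was closed. The labels do not say whether replicates came from separate cultures, so p-values measure only the spread between these libraries. SAP30 itself kept a promoter summit in all 6 libraries, with ranks of 84.7, 64.8 and 81.3 in Parental and 71.8, 49.5 and 89.5 in SAP30-KO1, and a promoter summit does not check a coding knockout. As a check of the cell line, 4 of 6 mesenchymal breast cancer genes, 0 of 6 luminal genes, 1 of 5 neuronal genes (SNAP25) and 0 of 4 blood genes had a promoter summit in all 6 libraries. The shares over all protein-coding genes were 34.5% in all 6 libraries, 27.8% in 1 to 5 and 37.7% in none. The mean rank of SNAP25 was 90.5, above that of every mesenchymal gene, of which CAV1 was highest at 84.8. The luminal promoters were not empty, as all 6 had a summit in 1 to 5 libraries and GATA3, KRT8 and EPCAM had one in 5, whereas the 2 other mesenchymal genes, ZEB1 and AXL, had one in 3 and the blood genes in none.

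Most clustered protocadherin promoters had no summit in any library. Only 3 of 53 members (5.66%) had one in all 6 libraries, against 34.5% of all protein-coding genes, and these were PCDHAC1, PCDHGB1 and PCDHGC3. A further 7 had one in 1 to 5 libraries, so that 10 of 53 (18.9%) had any, against 62.3% of all genes. The other 43 members had none, against 37.7% of all genes. The Parental libraries had a summit at 7, 4 and 6 members, and the SAP30-KO1 libraries at 3, 7 and 4. The mean was 5.67 ± 1.53 (SD, n = 3) in Parental and 4.67 ± 2.08 (SD, n = 3) in SAP30-KO1, and the groups overlapped. The lists differed in length. The longest ones (36694 and 40650 summits) had 7 members each and the shortest (29762 summits) had 3, while the list of 34262 summits had 4 and the shorter one of 33552 had 6. With the same number of top-ranked summits in each library the difference between the groups was -0.667 in place of -1.

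**Figure D1:**
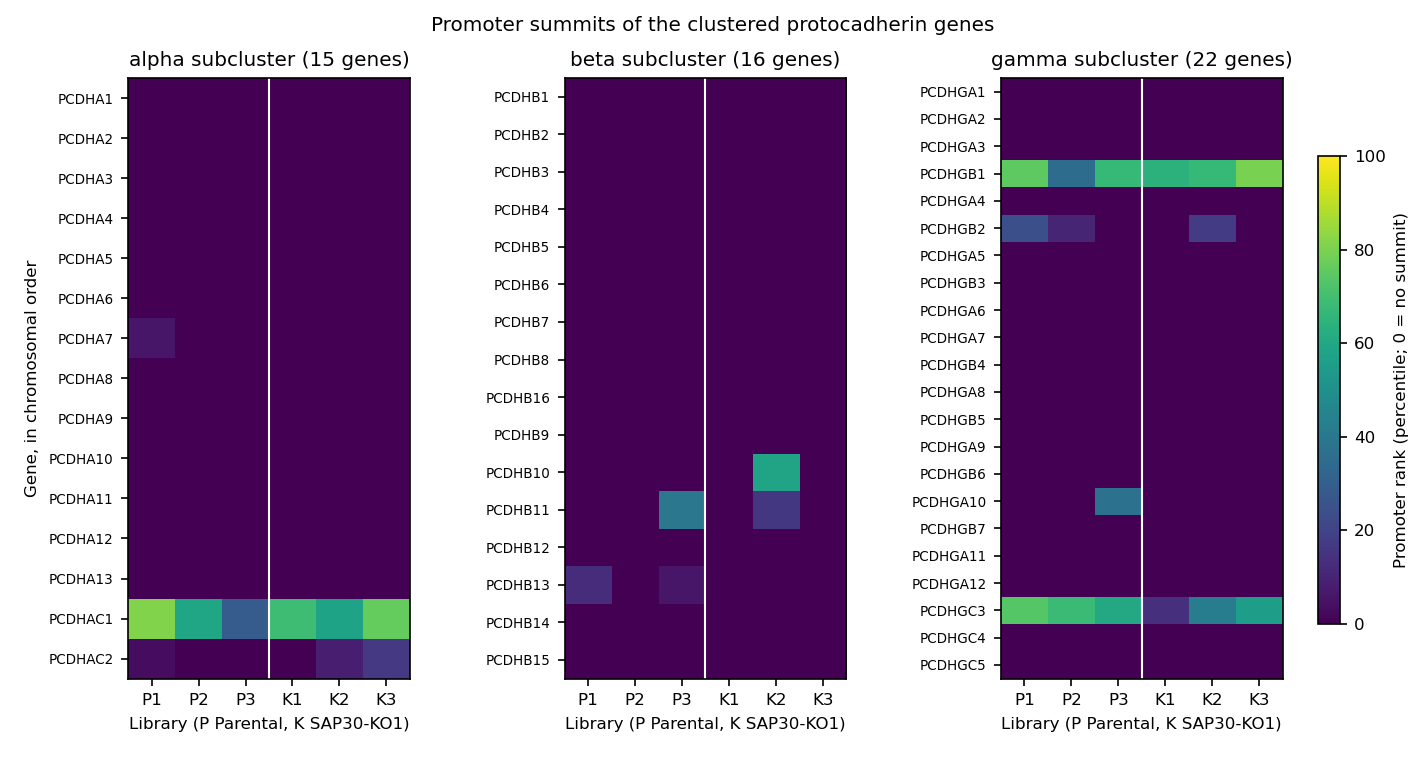
Each cell is the percentile rank (0 to 100, colour bar) of the highest summit within 1 kb of a start of that gene, for 53 genes in chromosomal order (rows) and 6 libraries (columns; P Parental, K SAP30-KO1). PCDHAC1, PCDHGB1 and PCDHGC3 have a value in every library, 7 genes have one in 1 to 5 libraries, and 43 rows are at 0 throughout.

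PCDHAC1, the first C-type gene of the alpha subcluster (ENSG00000248383.5_7, chr5:140305884-140391932), had ranks of 80.9, 59.1 and 29.3 in the Parental and 68.9, 57.9 and 76.3 in the SAP30-KO1 libraries. Its summits lay 148 to 535 bp after the gene's start, in its own first exon. Parental replicate 3 was lowest and Parental replicate 1 highest, so the SAP30-KO1 values fell inside the Parental range. The mean was 56.4 ± 25.9 (SD, n = 3) in Parental and 67.7 ± 9.29 (SD, n = 3) in SAP30-KO1, a difference of 11.3 (exact permutation test, two-sided, p = 0.7; adjusted p = 1 over 12572 genes). Without Parental replicate 3 the difference was -2.30, and without Parental replicate 1 it was 23.5.

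PCDHGB1, a B-type gene near the 5′ end of the gamma subcluster (ENSG00000254221.3_6, chr5:140729666-140892542), was the only member with a summit in all 6 libraries that is not C-type. Its ranks were 75.2, 35.2 and 66.8 in Parental and 64.2, 66.8 and 80.0 in SAP30-KO1. The summit lay 96 to 148 bp after the start in 5 libraries and at an offset of -191 bp in Parental replicate 3. Parental replicate 2 was the lowest library and the groups overlapped. The mean was 59.1 ± 21.1 (SD, n = 3) in Parental and 70.3 ± 8.43 (SD, n = 3) in SAP30-KO1, a difference of 11.3 (exact permutation test, two-sided, p = 0.5) that was -0.671 without Parental replicate 2. A summit here also lies in an exon of ENSG00000280026, an overlapping long noncoding RNA gene on the minus strand, and a summit cannot be assigned to 1 of them.

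PCDHGC3, the first C-type gene of the gamma subcluster (ENSG00000240184.7_8, chr5:140855514-140892544), was the only member whose ranks in the groups did not overlap. Its ranks were 73.5, 68.3 and 60.2 in Parental and 14.01, 42.0 and 55.6 in SAP30-KO1, so every SAP30-KO1 library was below every Parental library. The scores behind them were 8.50, 8.07 and 6.46 against 3.63, 5.82 and 6.66, and these overlap. The mean rank was 67.3 ± 6.71 (SD, n = 3) in Parental and 37.2 ± 21.2 (SD, n = 3) in SAP30-KO1, a difference of -30.2. The exact permutation test gave p = 0.1, the smallest that 3 against 3 libraries allow, and the Benjamini-Hochberg adjusted p over the 12572 genes with a promoter summit in any library was 0.945. Without SAP30-KO1 replicate 1, the lowest library, the difference was -18.6, and over the 6 ways of leaving out 1 library it ranged from -39.3 to -18.6. Among the 12572 genes, 10.6% had ranges apart in either direction and 4.57% had them lower in SAP30-KO1. Of the 10 members with any summit, 1 was apart. Ranges can be apart only where a group has a summit in all 3 libraries, which held for PCDHAC1, PCDHGB1 and PCDHGC3 alone. The 12572 genes hold their own mix of genes that could and could not be apart, so the family was not judged against that share.

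**Figure D2:**
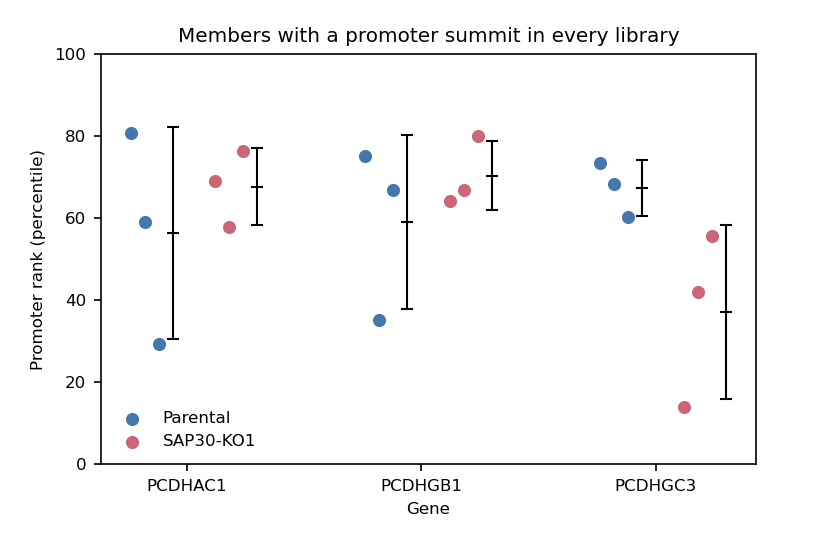
Points are the percentile rank of the promoter summit in each library (3 Parental, 3 SAP30-KO1) for the 3 members with a summit in all 6 libraries, and bars are the mean ± SD of 3 libraries. The groups overlap for PCDHAC1 and PCDHGB1, and for PCDHGC3 the SAP30-KO1 points (14.01 to 55.6) lie below the Parental points (60.2 to 73.5).

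All 3 ranked below the middle of such genes. Among the 6966 genes with a promoter summit in all 6 libraries the median of the mean rank was 71.3. Only 35.2% of these genes had a lower mean rank than PCDHAC1 (62.1), 39.0% a lower one than PCDHGB1 (64.7) and 20.4% a lower one than PCDHGC3 (52.3).

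The 7 members with a summit in 1 to 5 libraries came from every subcluster. PCDHAC2, the second C-type gene of the alpha subcluster, had weak summits, with ranks of 3.38 in Parental replicate 1 and 8.51 and 16.5 in SAP30-KO1 replicates 2 and 3. PCDHGB2 had 24.5 and 10.3 in Parental replicates 1 and 2 and 17.5 in SAP30-KO1 replicate 2. Neither was confined to 1 group. Among the beta genes, PCDHB10 had a summit in SAP30-KO1 replicate 2 alone (58.5), PCDHB11 in Parental replicate 3 (39.8) and SAP30-KO1 replicate 2 (16.1), and PCDHB13 in Parental replicates 1 and 3 (12.8 and 5.99). PCDHGA10 had 37.6 in Parental replicate 3 and PCDHA7 had 6.24 in Parental replicate 1, each in that library only. Singletons of this kind are common in these lists, as 28.5% of the 56419 union loci of the genome were in 1 library.

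Between the groups, the largest falls after PCDHGC3 were those of PCDHGA10 (-12.5) and PCDHB11 (-7.89), and the largest gains were those of PCDHB10 (19.5), PCDHAC1 (11.3) and PCDHGB1 (11.3). The PCDHGA10 and PCDHB10 differences each rest on 1 library and are 0 without it, and that of PCDHB11 was 5.37 without Parental replicate 3. Of the 10 members with any summit, 6 had a lower and 4 a higher mean rank in SAP30-KO1, beside 46.9% lower among all 12572 genes. The median difference of these members was -3.90, beside 0.673 over all 12572 genes. It fell between PCDHGB2 (-5.72) and PCDHA7 (-2.08), and the PCDHA7 difference rests on 1 library.

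Next, the subclusters were compared within each library. Means over members include the genes at 0 and are given as descriptions with no p. The alpha mean was 6.03, 3.94 and 1.95 in Parental and 4.60, 4.42 and 6.19 in SAP30-KO1. The beta mean was 0.803, 0 and 2.86 in Parental and 0, 4.66 and 0 in SAP30-KO1. The gamma mean was 7.87, 5.17 and 7.48 in Parental and 3.56, 5.74 and 6.16 in SAP30-KO1. Gamma was above beta in 6 of 6 libraries, by 4.61 ± 2.11 (SD, n = 6), while beta was below alpha in 4 of 6 and gamma above alpha in 4 of 6. The beta subcluster was the only one with 0 members called in all 6 libraries, against 1 of 15 in alpha and 2 of 22 in gamma. Members with a summit in any library were 3 of 15 in alpha, 3 of 16 in beta and 4 of 22 in gamma. The gamma mean rests mainly on PCDHGB1 and PCDHGC3, with mean ranks of 64.7 and 52.3 over the 6 libraries. The other gamma genes with a summit, PCDHGB2 and PCDHGA10, had 8.71 and 6.26. The higher gamma mean is thus not a difference across most members of the subcluster.

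The C-type genes had higher mean ranks than the rest of the alpha and gamma subclusters. Their mean was 31.6, 25.5 and 17.9 in Parental and 16.6, 21.7 and 29.7 in SAP30-KO1. The other 32 alpha and gamma genes had means of 3.31, 1.42 and 3.26 in Parental and 2.01, 2.64 and 2.499 in SAP30-KO1. The C-type mean was higher in 6 of 6 libraries, by 21.3 ± 6.08 (SD, n = 6). This rests on PCDHAC1 and PCDHGC3 with a small part from PCDHAC2, as PCDHGC4 and PCDHGC5 had no summit in any library.

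**Figure D3:**
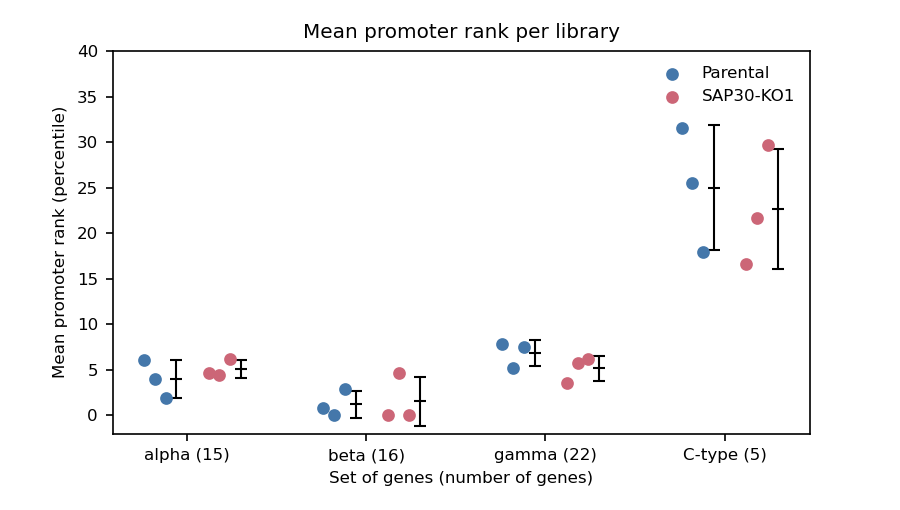
Points are the mean percentile rank over all genes of a set in each library (3 Parental, 3 SAP30-KO1), with genes without a summit at 0, and bars are the mean ± SD of 3 libraries. The 5 C-type genes, which also count in the alpha and gamma sets, lie between 16.6 and 31.6 and the subclusters below 8.

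No subcluster separated the groups. The alpha mean was 3.98 ± 2.04 in Parental and 5.07 ± 0.972 in SAP30-KO1 (SD, n = 3 each), the beta mean 1.22 ± 1.48 and 1.55 ± 2.69, and the gamma mean 6.84 ± 1.46 and 5.15 ± 1.40. The C-type mean was 24.98 ± 6.84 in Parental and 22.6 ± 6.60 in SAP30-KO1. Over all 53 members it was 4.33 ± 0.992 and 4.04 ± 1.16. The groups overlapped in each of these sets.

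Composition differed among member promoters. Over the 500 bases on each side of the canonical start, the median GC content of members was 44.4%, against 61.2% for all protein-coding genes and 62.8% for genes with a summit in all 6 libraries. The ratio of observed to expected CpG dinucleotides, the sites of DNA methylation, had a median of 0.665 in members, 0.723 in all genes and 0.360 in genes with no summit in any library. Among the subclusters the median ratio was 0.780 in alpha, 0.492 in beta and 0.665 in gamma. Member promoters with no summit had a median of 0.677, with 28 of 43 at 0.6 or more. A ratio of 0.6 or more was also found in 3 of 3 members with a summit in all 6 libraries and 4 of 7 with one in 1 to 5. The share of all genes at 0.6 or more was not counted. PCDHAC1 had 63.0% GC and 78 CpG sites, PCDHGC3 had 53.4% and 50, and PCDHGB1 had 43.1% and 29. PCDHGB1 thus lay amid members with no summit in both measures, and PCDHGC4, with 55.7% GC and 51 CpG sites, had none.

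**Figure D4:**
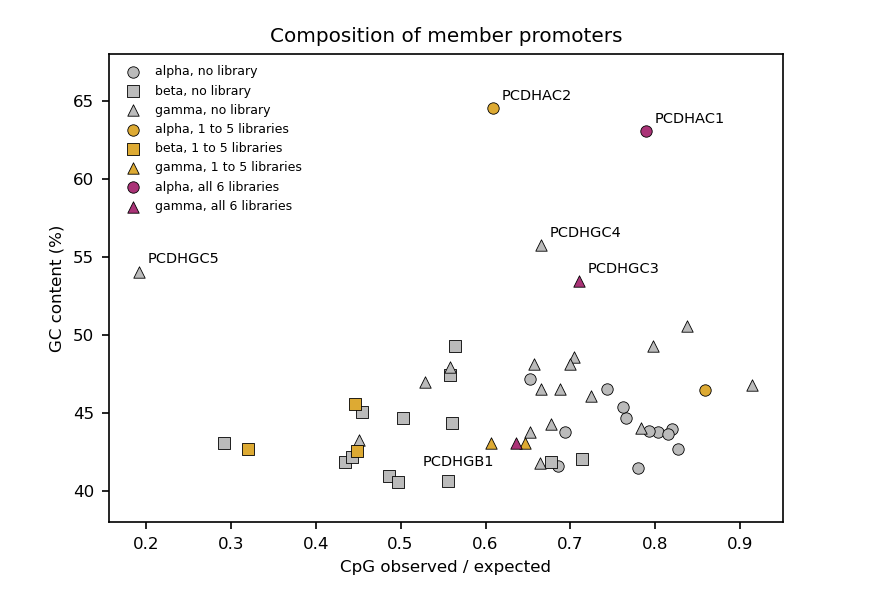
Each point is 1 of 53 member promoters, by CpG observed to expected ratio (x axis) and GC content in percent (y axis) over 500 bases on each side of the start, with colour for the number of libraries with a summit and shape for the subcluster. PCDHAC1 (63.0% GC) and PCDHGC3 (53.4%) sit above most members, and PCDHGB1 (43.1%) sits among members with no summit.

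The 150 bases before the annotated start are shown for the 3 members with a summit in every library and for PCDHA1. PCDHA1 is an example from the 43 members with no summit. Sequences are from GRCh37, plus strand, and capitals mark CpG sites, of which PCDHAC1 has 14, PCDHGC3 11, PCDHGB1 5 and PCDHA1 3. The gap between PCDHGB1 and PCDHA1 depends on the window. Over the wider window used for GC content above, both had 29 CpG sites, with ratios of 0.636 in PCDHGB1 and 0.685 in PCDHA1. There the 43 members with no summit had 13 to 53 sites, with a median of 33. The 3 members with a summit in every library had 29 to 78, with a median of 50.
PCDHAC1 (chr5:140305734-140305883): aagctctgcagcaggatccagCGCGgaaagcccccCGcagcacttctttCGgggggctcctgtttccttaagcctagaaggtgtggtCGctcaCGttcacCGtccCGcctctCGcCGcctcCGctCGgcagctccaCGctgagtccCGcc
PCDHGC3 (chr5:140855364-140855513): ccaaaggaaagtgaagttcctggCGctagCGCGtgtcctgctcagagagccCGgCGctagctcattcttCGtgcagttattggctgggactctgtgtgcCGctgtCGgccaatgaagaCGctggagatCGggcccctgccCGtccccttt
PCDHGB1 (chr5:140729516-140729665): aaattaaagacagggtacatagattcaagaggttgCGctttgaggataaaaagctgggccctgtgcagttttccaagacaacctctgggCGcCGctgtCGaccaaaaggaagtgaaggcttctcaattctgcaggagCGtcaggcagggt
PCDHA1 (chr5:140165571-140165720): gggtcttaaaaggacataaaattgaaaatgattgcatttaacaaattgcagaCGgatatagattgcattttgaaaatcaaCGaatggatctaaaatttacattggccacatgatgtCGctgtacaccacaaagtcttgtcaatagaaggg

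The element shown earlier was not limited to members with a summit. It was present in 2 of the 3 members with a summit in all 6 libraries, in 2 of the 7 with one in 1 to 5 libraries and in 27 of the 43 with none (62.8%), and it was not found in this window of PCDHAC1. A core of the CTCF motif was read as CCA, 2 bases of any kind, AG, 2 of any kind and GGC. On either strand within 500 bases of the start, this core was found in 6 of 53 members (11.3%) and in 7.32% of all promoters. Its offset from the start was -82 in PCDHB9 and 229 to 456 in the other members that had it. Only exact matches of the fixed letters were counted, so sites that differ at 1 of them are missed. These counts therefore do not give the share of member promoters with a CTCF site. Members resemble each other in sequence, and a read that matches several copies has no single place. Of 53 promoters, 33 consisted entirely of 75-base stretches found once in the genome, and 20 did not. The lowest shares were those of PCDHB13 (62.0%) and PCDHB8 (66.3%). PCDHAC1, PCDHGB1 and PCDHGC3 were at 100%. Not fully unique were 17 of the 43 members without a summit and 3 of the 7 with one in 1 to 5 libraries. PCDHB13, at the lowest share, had a summit in 2 libraries. How the authors' alignment treated reads with several matches is not given in the sources used here, and its part in the missing summits was not tested.

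The whole interval, chr5:140100000-140950000, held 14, 10 and 16 summits in the Parental and 12, 16 and 13 in the SAP30-KO1 libraries. The mean was 13.3 ± 3.06 (SD, n = 3) in Parental and 13.7 ± 2.08 (SD, n = 3) in SAP30-KO1 (exact permutation test, two-sided, p = 1). As a share of all summits, the interval took 0.0382%, 0.0328% and 0.0477% in Parental and 0.0403%, 0.0394% and 0.0379% in SAP30-KO1 (exact permutation test, two-sided, p = 0.9). The density of summits was 0.880 to 1.301 times that of the long arm of chromosome 5. Of the 81 summits of the interval over the 6 libraries, 33 lay at member promoters.

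After windows reaching 250 bp to either side of the summits were merged where they overlapped, the interval held 23 loci, of which 7 were in all 6 libraries, against 28.9% of all union loci. The locus with the highest mean rank (83.0) lay in an intron of DIAPH1, which encodes a formin that nucleates actin filaments, at chr5:140900529-140901419, beyond the last gamma exon. Its mean was 89.1 ± 8.84 in Parental and 76.8 ± 12.1 in SAP30-KO1 (SD, n = 3 each), and the groups overlapped. PCDHGB1 (64.7) and PCDHAC1 (62.1) followed, then the start of VTRNA1-3, a vault RNA gene, at chr5:140105285-140106101 (58.2), and a DIAPH1 start at chr5:140937018-140937922 (52.7).

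Between members, 1 locus was called in SAP30-KO1 only and 0 in Parental only, where 1.43% and 0.876% of all union loci were. It lay at chr5:140383488-140384352, in the intron between the second and the third shared alpha exon. Its ranks were 13.3, 66.3 and 0.436 in SAP30-KO1 replicates 1, 2 and 3, so 1 of the 3 summits was among the weakest of its list. With windows of 100 bp on each side 0 loci were called in SAP30-KO1 only. In the gamma subcluster, a locus at chr5:140888464-140889250, in the intron before the last shared exon, had a summit in 5 libraries. Its ranks were 39.1 and 45.1 in Parental replicates 2 and 3 and 20.5, 30.3 and 26.7 in SAP30-KO1. Its middle summit lay 1284 bp after an annotated PCDHGC3 start, outside the 1 kb window. With a window of 2.5 kb the PCDHGC3 difference was -28.0. Between alpha and beta, chr5:140420400-140420989 had ranks of 17.7 and 20.7 in Parental replicates 1 and 3 and 57.2 and 59.5 in SAP30-KO1 replicates 1 and 2. Parental replicate 2 and SAP30-KO1 replicate 3 had no summit there, so the groups overlapped.

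**Figure D5:**
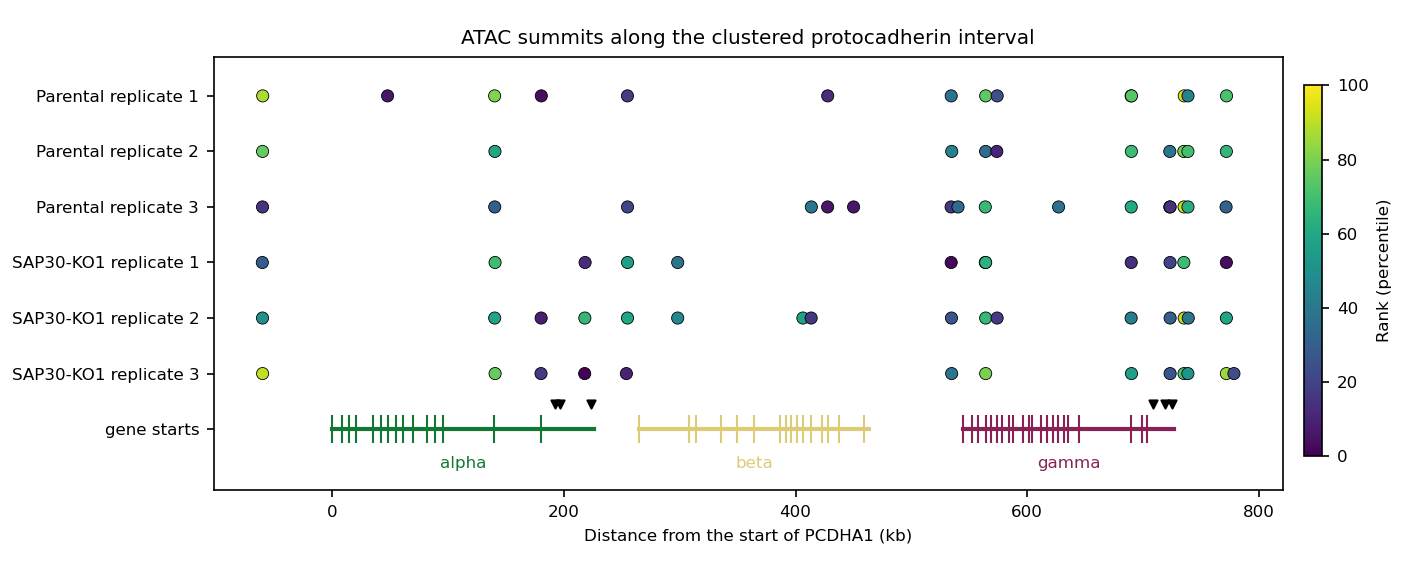
Each point is a summit, at its distance from the start of PCDHA1 in kb (x axis) in 1 of 6 libraries (rows), coloured by percentile rank, with member starts as vertical ticks, subclusters as bars and shared exons as triangles in the lowest row. Columns of points in all 6 rows mark PCDHAC1, PCDHGB1 and PCDHGC3 and 4 loci outside the member promoters, and most ticks have no point above them.

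Other genes of the pathway were taken from lists. Of 12 genes that act on the choice of clustered protocadherin promoters, 7 had a promoter summit in all 6 libraries and 5 in 1 to 5. The shares over all protein-coding genes were 34.5% and 27.8%. CTCF, which binds these promoters and their enhancers, had ranks of 56.2, 75.03 and 49.8 in Parental and 88.5, 83.0 and 42.0 in SAP30-KO1, and the groups overlapped. SMC1A, a cohesin subunit, had 56.2, 22.3 and 55.4 in Parental and 61.6, 79.5 and 81.4 in SAP30-KO1, and was the 1 gene of 12 with ranges apart. Among the 12572 genes with a promoter summit in any library, 10.6% had ranges apart in either direction and 6.01% were higher in SAP30-KO1. Of 8 genes whose products act with the protocadherin cytoplasmic end, such as the focal adhesion kinase gene PTK2, 6 had a summit in all 6 libraries. Ranges apart were seen in 0 of these 8. The background shares are those just given, 34.5% and 10.6%.

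The non-clustered protocadherins, relatives that lie alone in the genome, are given for comparison. Of 11, 5 had a promoter summit in all 6 libraries (PCDH9, PCDH10, PCDH12, PCDH17 and PCDH20), 3 in 1 to 5 and 3 in none. The shares over all protein-coding genes were 34.5%, 27.8% and 37.7%. PCDH20 had ranks between 94.5 and 99.3 in all libraries, above any clustered member. PCDH18 was the 1 gene of the list with ranges apart, at 45.2, 18.2 and 35.0 in Parental and 0, 16.1 and 0 in SAP30-KO1. Among the 12572 genes with a promoter summit in any library, 10.6% had ranges apart in either direction and 4.57% were lower in SAP30-KO1. Within the interval, TAF7, a general transcription factor gene between beta and gamma, had a summit in all 6 libraries with a mean rank of 27.5, and DIAPH1 likewise, while the other 3 protein-coding genes that are not members had none.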

How the data were processed

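Chromatin of 6 MDA-MB-231 libraries was profiled by ATAC-seq, and groups and replicate numbers came from the labels. Per the study's methods and processing notes, the authors trimmed single-end reads with Trim Galore 0.4.5, aligned them to hg19 with Bowtie2 2.3.3.1, discarded duplicate alignments (Picard) and ran MACS2 2.1.0 with a q cutoff of 0.05 to call peaks. The deposited scores are −log10 of the q value, as read from their lowest values. Transposase shift, blacklist and mitochondrial handling are not given in the sources used here.

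Ranks, windows and loci were computed with Python 3.11.15, NumPy 2.4.6 and SciPy 1.17.1 and tested on simulated data. Group means were compared by exact permutation over 20 assignments, with a smallest p of 0.1. Named genes were all members with a summit, the 3 largest differences in each direction, members with ranges apart, the 5 highest loci, loci of 1 group only and list genes. The members and lists were chosen with earlier results of these data known, though the rule for members used no measured value. Tests planned for means over members are not quoted, as these means are given as descriptions. Alternatives were stricter q values, equal list lengths, other windows and starts, ranks within the long arm, a replicate block and leaving out each library.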

Additional observations from a re-analysis of the deposited data

How the results depend on the processing

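Small differences between the groups changed sign with the processing. The mean rank over all members differed by -0.290 (SAP30-KO1 minus Parental) and by 0.138 with q values of 0.0001 or less. The share of summits in the interval differed by -0.000343 percentage points, by 0.00112 with the same number of top-ranked summits in each library and by 0.00315 with only summits beyond member promoters. When each library was left out in turn, the ranges were -0.827 to 0.343 for the mean rank of all members, -1.22 to 1.15 for beta, -1.33 to 1.67 for summits in the interval and -0.00371 to 0.00373 for the share. The number of members with a summit ranged from -2.17 to -0.167, and the alpha and gamma means from 0.0811 to 2.12 and -2.52 to -0.889. Over all alternatives run, gamma minus beta lay between 3.78 and 5.32 and C-type minus other alpha and gamma genes between 16.6 and 22.6, both lowest with q values of 0.0001 or less. The cause of the reversals was not tested.

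With 100 bp in place of 250 bp on each side the interval held 30 loci in place of 23, of which 4 in place of 7 were in all 6 libraries. Under q of 0.0001 or less, 4 of the 10 members with a summit (PCDHA7, PCDHAC2, PCDHB13 and PCDHGB2) had none left. A window of 250 bp around the starts, chosen after seeing the data, left the difference in members with a summit at -1. The replicate numbers did not pair the libraries, as deviations of same-numbered libraries correlated at -0.0291, -0.0292 and 0.0129. With a replicate block the differences were the same by construction, -1 for members with a summit, with 0.25 as the smallest p it allows. The lists hold no counts, so depth could not be weighed.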
